A study of Mus musculus with 33 samples.

Results

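The D cyclins, the kinases they activate and the CDK inhibitors that restrain them were followed across mammary tumors and tumor-free mammary glands of PTHrP wild-type and knockout mice. The members were taken by gene symbol and are 10 of the 55487 genes counted, namely the cyclins Ccnd1, Ccnd2 and Ccnd3, the kinases Cdk4 and Cdk6, the Cip/Kip inhibitors Cdkn1a (p21) and Cdkn1b (p27), and the INK4 inhibitors Cdkn2a (p16Ink4a and p19Arf), Cdkn2b (p15) and Cdkn2c (p18). All 10 passed the filter on low counts, with between 1729 (Cdkn2a) and 424409 (Ccnd1) reads summed over the libraries. In GRCm38 the 5 members that were called in some comparison lie at chr7:144929931-144939925 (Ccnd1), chr6:127125162-127152193 (Ccnd2), chr17:29090976-29100727 (Cdkn1a), chr4:89306299-89311039 (Cdkn2b) and chr4:109660876-109667189 (Cdkn2c).

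A D cyclin is made in response to growth signals and joins Cdk4 or Cdk6. The complex phosphorylates the retinoblastoma protein and its relatives, which releases E2F factors and lets the cell pass from G1 into S phase. INK4 proteins bind Cdk4 and Cdk6 and keep the cyclin out, whereas p21 and p27 bind whole cyclin-kinase complexes and block Cdk2 in particular. Cyclin D1 and Cdk4 are needed for the Ras and Neu oncogenes to transform the mammary epithelium, and Cdkn2a is an exception among INK4 genes in that it also encodes, from a separate first exon and in another reading frame, an activator of p53.

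The series holds RNAseq libraries of GFP+ mammary cells from 33 mice on an FVB background, 1 library per mouse. All mice carried MMTV-Cre, which is active in the mammary epithelium, and the mT/mG reporter that turns GFP on where Cre has acted. WT mice were Pthrpwt/wt and KO mice Pthrpflox/flox, an allele brought in by backcrossing from C57BL/6, and tumor mice also carried the MMTV-PyMT oncogene. There were 3 WT tumors each at weeks 6, 8 and 10 and 1 at week 12, 3 KO tumors each at weeks 8, 10 and 12, 2 WT glands each at weeks 6, 8, 10 and 12, and 2 KO glands each at weeks 8, 10 and 12. The stages named hyperplasia, adenoma and carcinoma fall at weeks 6, 8 and 10 in WT tumors and at weeks 8, 10 and 12 in KO tumors. Cells were dissociated and kept in culture with serum before the sort, so the levels of these growth-responsive genes are those after culture.

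Libraries held between 28419983 and 130981596 counted reads, with a median of 46351179. Levels are given as CPM, a scaled count that corrects for library size with TMM factors, and levels of different genes are compared only per kilobase of exon. Ribosomal RNA (rRNA) took at most 0.447% of the reads of any WT library, but over 1% in 4 of the 9 KO tumors (up to 12.0%) and in 4 of the 6 KO glands (up to 18.8%). Reads of Pthlh, the targeted gene, summed over the whole gene, were at 1.47 to 6.67 CPM in WT tumors and 1.35 to 2.29 CPM in KO tumors, and the ranges in glands were 2.93 to 7.73 CPM (WT) and 2.79 to 8.52 CPM (KO). These gene totals include exons outside the floxed part and so do not show the deletion. The epithelial markers Epcam and Krt8 were high in every library, at no less than 525 CPM and 1379 CPM. Markers of other cells were lower but present. Cd3e of T cells and Adipoq of adipocytes stood at 0.190 CPM or less, Pecam1 of endothelium reached 3.54 CPM, Ptprc of leukocytes 10.26 CPM in a KO gland, and Pdgfra of fibroblasts 28.7 CPM and Adgre1 of macrophages 3.56 CPM in WT glands.

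Ccnd2 fell in tumors of both genotypes and at each age compared, and it was the member with the largest change in both averaged comparisons. In WT glands Ccnd2 was at 86.9 and 52.4 CPM at week 6, 56.8 and 46.0 CPM at week 8, 45.3 and 21.2 CPM at week 10, and 30.1 and 30.4 CPM at week 12. In WT tumors it was at 7.83, 3.62 and 15.3 CPM at week 6, 1.94, 2.28 and 1.57 CPM at week 8, 3.09, 2.95 and 2.26 CPM at week 10, and 2.85 CPM at week 12. All 10 WT tumors were below all 8 WT glands. In KO glands Ccnd2 was at 46.3 and 45.6 CPM at week 8, 25.6 and 74.9 CPM at week 10, and 29.6 and 27.1 CPM at week 12. In KO tumors it was at 9.71, 11.8 and 13.7 CPM at week 8, 6.20, 4.56 and 1.55 CPM at week 10, and 2.65, 8.36 and 4.41 CPM at week 12. All 9 KO tumors were below all 6 KO glands, and no tumor of either genotype reached the lowest gland. The means were 46.1 ± 20.5 CPM (SD, n = 8) in WT glands and 4.37 ± 4.23 CPM (SD, n = 10) in WT tumors, and 41.5 ± 18.8 CPM (SD, n = 6) in KO glands and 6.99 ± 4.17 CPM (SD, n = 9) in KO tumors.

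**Figure D1:**
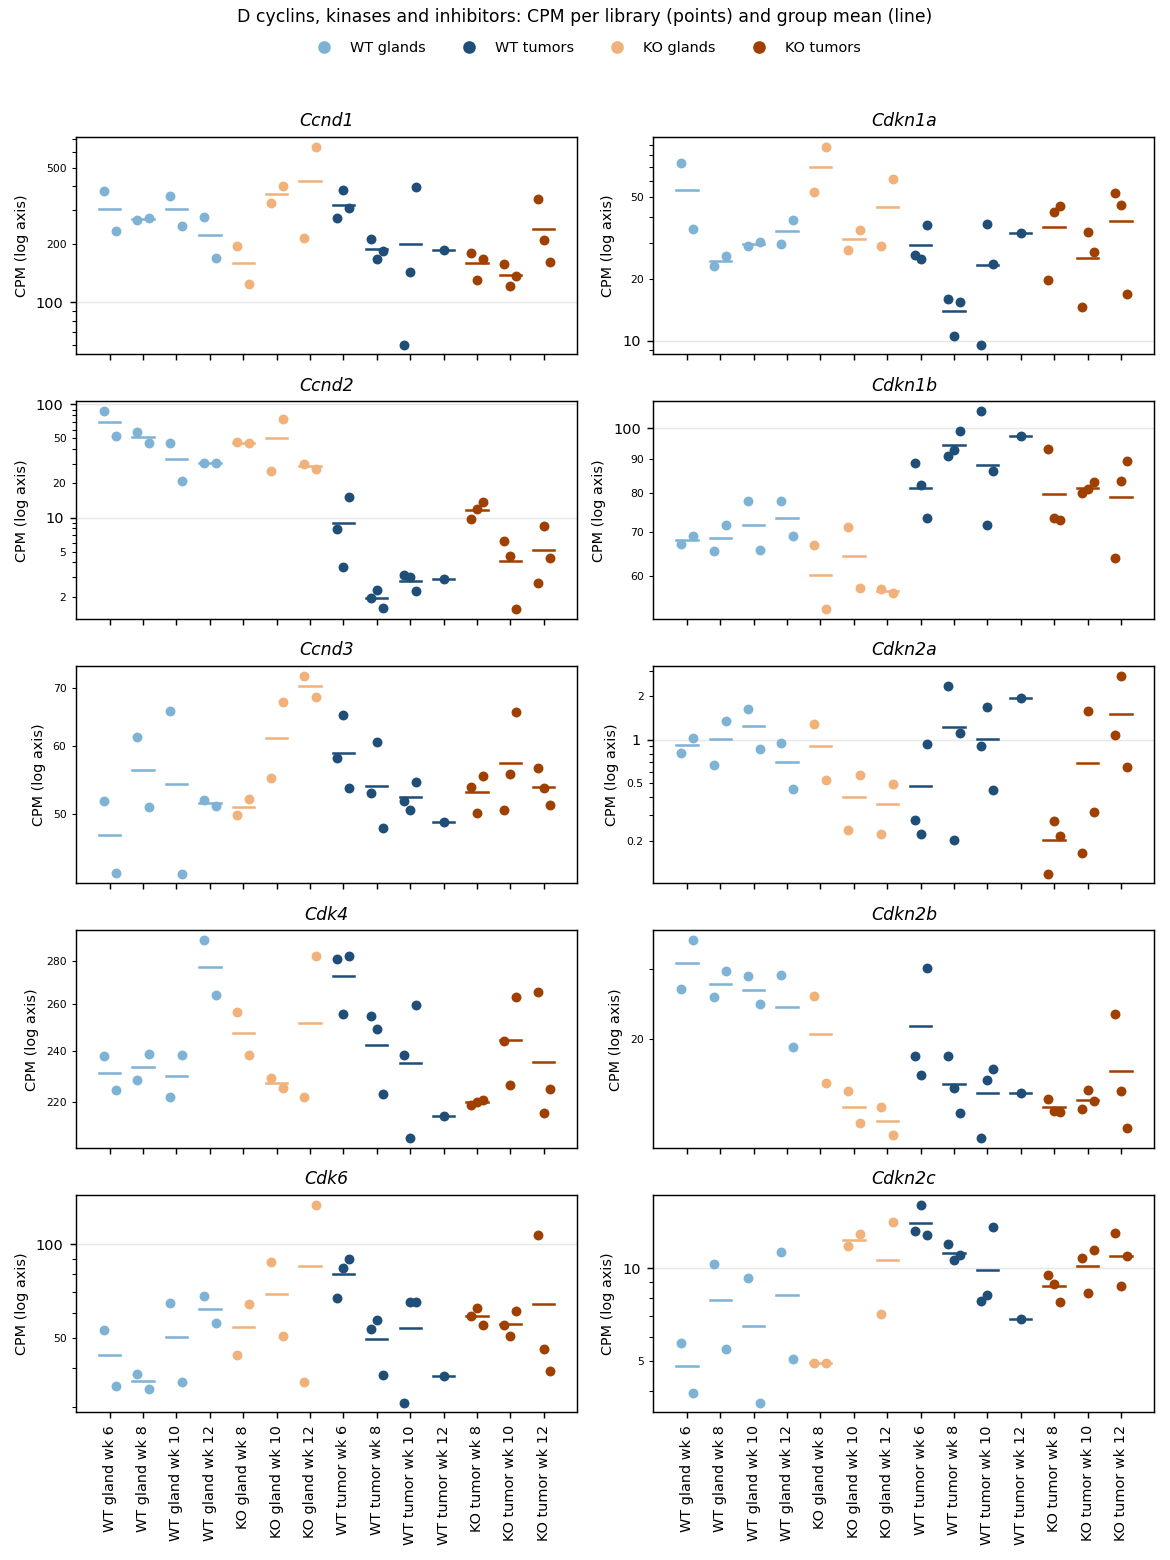
CPM of the 10 genes in each of the 33 libraries (points, logarithmic y axes with a range of their own) and the mean of each group (lines), with glands to the left and tumors to the right of each panel. The 19 tumors hold at most 15.3 CPM of Ccnd2 and the 14 glands at least 21.2 CPM, whereas tumors and glands overlap for Ccnd3 and Cdk4.

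In the fit of all genes (edgeR quasi-likelihood test, Benjamini-Hochberg over 36527 genes, called at a fold change over 1.5 and adjusted p under 0.1), Ccnd2 fell by 3.76 ± 0.30 on the log2 scale (SE), 13.6-fold, in WT tumors averaged over weeks 6, 8 and 10, with an adjusted p of 2.2e-09. In KO tumors averaged over weeks 8, 10 and 12 it fell by 2.68 ± 0.29 (SE), 6.42-fold, with an adjusted p of 4.4e-07. At single ages its log2 change was -2.97 at week 6, -4.73 at week 8 and -3.59 at week 10 in WT mice (adjusted p = 0.0012, 6.3e-06 and 1.1e-04), and -1.97 at week 8, -3.61 at week 10 and -2.47 at week 12 in KO mice (adjusted p = 0.039, 2.3e-04 and 0.0043). The call at week 8 in KO mice was lost in each of the 5 fits that left out 1 of its libraries (log2 change -2.10 to -1.85, highest adjusted p = 0.309). The rRNA share of these libraries was 0.0224% and 15.7% in the glands and 0.00572%, 12.0% and 3.62% in the tumors. With the groups compared alone in the fit, the change of Ccnd2 at week 12 in KO mice was -2.49 with an adjusted p of 0.163.

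The whole list of basal (myoepithelial) markers moved with Ccnd2. All 10 of its 10 genes were lower in both averaged comparisons, with a median log2 change of -2.81 in WT and -2.66 in KO mice, against medians over all genes of 0.04 and 0.09. Their summed level ran from 4717 to 17560 CPM in WT glands and from 978 to 3267 CPM in WT tumors, and from 5015 to 16800 CPM in KO glands and from 1483 to 4850 CPM in KO tumors. Krt5 and Acta2, which define basal cells, were detected in every tumor, with medians of 144 and 302 CPM in WT and 165 and 299 CPM in KO tumors. Of the 10 luminal markers 1 was higher and 5 were lower in WT tumors, and 1 was higher and 4 were lower in KO tumors. Of 10 fibroblast markers 6 were lower in WT and 2 in KO tumors, and of 10 endothelial markers 7 and 1, with summed levels of at most 796 CPM and 90.4 CPM in any library. The summed macrophage list stood higher in tumors, at 62.8 to 172 CPM in WT glands and 151 to 293 CPM in WT tumors, and at 68.0 to 154 CPM in KO glands and 152 to 418 CPM in KO tumors, although of its 10 genes 1 was called higher and 3 lower in WT and 3 higher and 0 lower in KO tumors. Of 10 adipocyte markers 1 was higher and 2 lower in WT and 1 higher and 0 lower in KO tumors, and of 10 lymphocyte markers 1 was lower in each, with summed levels of at most 41.9 CPM and 18.04 CPM. The part of cell type in the fall of Ccnd2 was not tested, and in bulk libraries fewer cells of a type and less RNA per cell cannot be told apart.

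The other 2 D cyclins and both kinases kept a narrower range. Ccnd1, which encodes cyclin D1, was called lower in KO tumors but not in WT tumors. In KO glands it was at 197 and 125 CPM at week 8, 327 and 401 CPM at week 10, and 215 and 640 CPM at week 12. In KO tumors it was at 180, 131 and 167 CPM at week 8, 158, 121 and 138 CPM at week 10, and 345, 211 and 162 CPM at week 12. The tumors lay below the glands at week 10 alone, and 1 of the 9 KO tumors was below all 6 KO glands. Averaged over ages Ccnd1 fell by 0.75 ± 0.27 on the log2 scale (SE), 1.68-fold, with an adjusted p of 0.067, and at week 10 by 1.39 ± 0.47 (adjusted p = 0.097). The averaged call was lost in 7 of 15 fits that left out 1 library. Those were the fits without KO gland replicate 1 of week 8 (log2 change -0.63), replicate 2 of week 10 (-0.70) or replicate 2 of week 12 (-0.39), the gland at 640 CPM, and without KO tumor replicate 2 of week 8 (-0.69), of week 10 (-0.72) or of week 12 (-0.72) or replicate 3 of week 12 (-0.68). The call at week 10 was lost in all 5 such fits (log2 change -1.53 to -1.24), and also with upper-quartile factors or the rRNA share as a covariate (highest adjusted p = 0.118). In WT mice Ccnd1 ran from 170 to 377 CPM in glands (median 270 CPM) and from 60.5 to 398 CPM in tumors (median 200 CPM), and the averaged change was -0.35 ± 0.27 (95% interval -0.91 to 0.21, adjusted p = 0.436).

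Ccnd3, which encodes cyclin D3, had medians of 51.5 CPM in WT glands, 53.2 CPM in WT tumors, 61.2 CPM in KO glands and 53.8 CPM in KO tumors, and all libraries lay between 42.7 and 72.2 CPM. The averaged tumor change was 0.07 (95% interval -0.11 to 0.25) in WT and -0.14 (-0.32 to 0.04) in KO mice. Cdk4 was the steadiest member, between 207 and 290 CPM in all 33 libraries, with changes of 0.11 (-0.03 to 0.25) and -0.05 (-0.20 to 0.09). Cdk6 varied more, from 30.9 to 134 CPM, with changes of 0.47 (-0.04 to 0.97) and -0.20 (-0.69 to 0.29). None of these 6 averaged changes was called, and the intervals, which are not adjusted for the number of genes, are narrow for Cdk4 and Ccnd3 and wide for Cdk6.

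**Figure D2:**
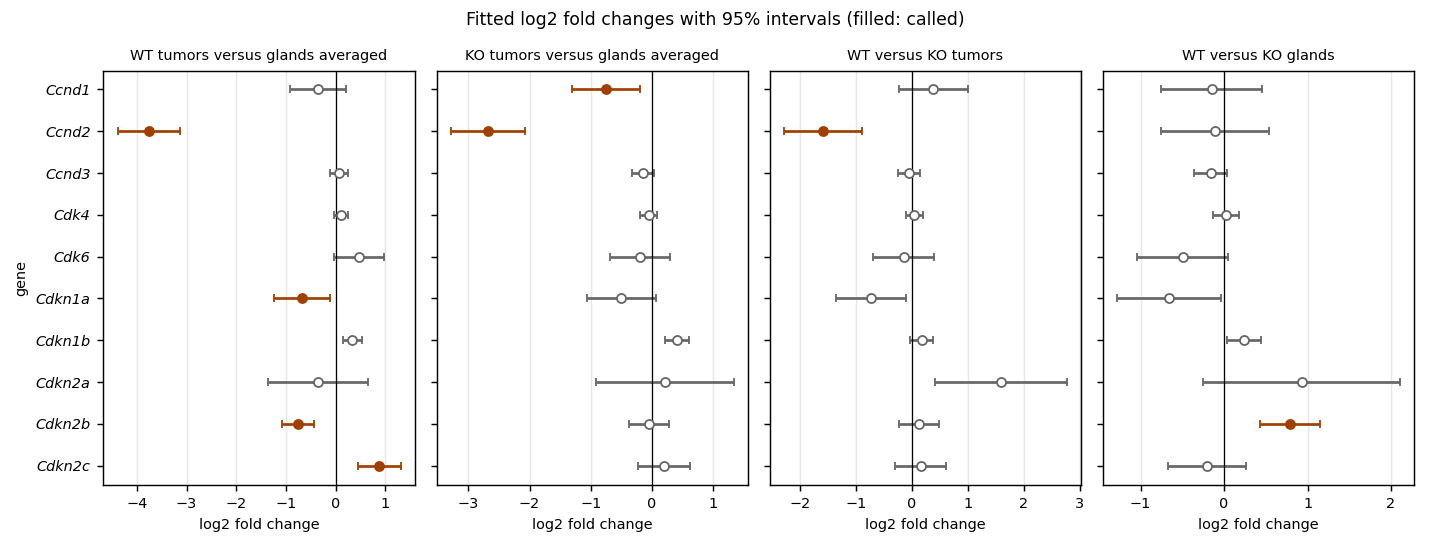
Fitted log2 fold change of each member (x axis) with its 95% interval from the edgeR fit, not adjusted for the number of genes, in 4 averaged comparisons, where filled orange points were called and open grey points were not. Ccnd2 lies at -3.76 and -2.68 in the comparisons of tumors with glands and at -1.59 in WT against KO tumors, and Cdk4 and Ccnd3 lie near 0 in all of them.

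Per exon length the D cyclins were far from equal. Ccnd1 had a median of 57.4 CPM per kilobase in the 14 glands and 38.2 in the 19 tumors, Ccnd3 5.92 and 6.12, and Ccnd2 4.83 and 0.385. The share of each cyclin in the sum of the 3, computed in each library from reads per exon base, does not depend on scaling between libraries and was tested by exact permutation of the labels within week (two-sided, Benjamini-Hochberg over 12 tests). Ccnd2 made up 7.31% ± 2.34 (SD, n = 6) of the D cyclin total in WT glands and 0.901% ± 0.693 (SD, n = 9) in WT tumors of weeks 6 to 10, a difference of -6.41 percentage points with an exact p of 0.001, the smallest these 1000 arrangements can give (adjusted p = 0.006). In KO mice the share was 6.87% ± 4.06 (SD, n = 6) in glands and 1.78% ± 1.14 (SD, n = 9) in tumors, a difference of -5.09 points with the same exact p and adjusted p. WT tumors held at most 2.23% and WT glands at least 3.73%, whereas the lowest KO gland (1.96%) lay among the KO tumors (0.353% to 3.61%).

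**Figure D3:**
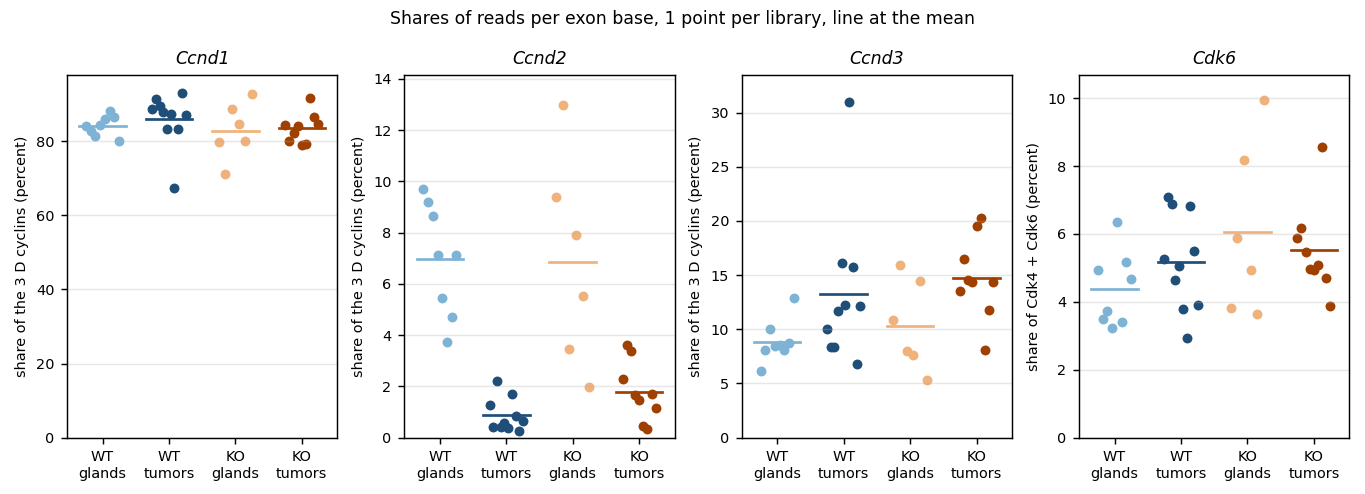
Share of Ccnd1, Ccnd2 and Ccnd3 in the sum of the 3 D cyclins and of Cdk6 in the sum of Cdk4 and Cdk6 (percent, from reads per exon base, axes from 0), with 1 point per library and a line at the mean of each genotype and tissue over all ages. The Ccnd2 share of WT tumors stays at 2.23% or less and that of WT glands at 3.73% or more, while the Ccnd1 share overlaps in all 4 sets.

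Ccnd1 made up most of the total throughout, at 84.5% in WT glands, 85.7% in WT tumors, 82.8% in KO glands and 83.5% in KO tumors, and neither tumor difference passed the test (1.26 points, exact p = 0.794, and 0.66 points, exact p = 0.806). The Ccnd3 share was 8.22% in WT glands and 13.4% in WT tumors, and 10.34% in KO glands and 14.8% in KO tumors, differences of 5.15 points (exact p = 0.057) and 4.42 points (exact p = 0.054) that missed the threshold (adjusted p = 0.137 for both). WT tumor replicate 1 of week 10, whose Ccnd1 was at 60.5 CPM, had a Ccnd3 share of 30.9%, and without it the WT difference was 2.97 points. Without replicate 3 of week 10, which had a share of 6.83%, it was 6.99 points and passed the threshold. Cdk6 held 4.19% of the Cdk4 and Cdk6 total in WT glands, 5.33% in WT tumors, 6.07% in KO glands and 5.52% in KO tumors, with no difference past the threshold (exact p = 0.124 and 0.587). Between WT and KO tumors of weeks 8 and 10 the Ccnd2 share was 0.697% ± 0.543 and 2.14% ± 1.20 (SD, n = 6 each), a difference of -1.44 points with an exact p of 0.04 (adjusted p = 0.137).

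Among the Cip/Kip inhibitors, Cdkn1b was above most glands in tumors of both genotypes, by less than the fold the call required. It ran from 65.5 to 77.8 CPM in WT glands (median 68.9 CPM) and from 71.6 to 106 CPM in WT tumors (median 89.9 CPM), and 8 of 10 WT tumors were above all WT glands. In KO glands it ran from 53.6 to 71.3 CPM (median 57.5 CPM) and in KO tumors from 64.0 to 93.2 CPM (median 81.3 CPM), with 8 of 9 tumors above all glands. The averaged log2 changes were 0.34 ± 0.09 (SE, adjusted p = 0.0097) in WT and 0.40 ± 0.09 (SE, adjusted p = 0.0029) in KO mice, 1.26-fold and 1.32-fold. Cdkn1a, a target of p53, ran from 23.2 to 73.4 CPM in WT glands (median 30.0 CPM) and from 9.60 to 37.2 CPM in WT tumors (median 24.4 CPM). It fell by 0.68 ± 0.27 on the log2 scale (adjusted p = 0.089) in WT tumors, a call that was kept in 4 of 15 fits that left out 1 library, those without WT gland replicate 2 of week 6 or without WT tumor replicate 3 of week 6, 1 of week 8 or 2 of week 10. With upper-quartile factors in place of TMM the call was lost as well (adjusted p = 0.127). Over the 15 fits the change ran from -0.84 to -0.47, the last without WT gland replicate 1 of week 6, the gland at 73.4 CPM. In KO mice its change was -0.50 ± 0.27 (adjusted p = 0.284), with 27.8 to 88.1 CPM in glands and 14.6 to 52.5 CPM in tumors.

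The INK4 genes did not move as a group. Cdkn2b fell and Cdkn2c rose in WT tumors, and neither was called in KO tumors. Cdkn2b was at 26.7 and 35.5 CPM at week 6, 25.5 and 29.7 CPM at week 8, 28.8 and 24.4 CPM at week 10 and 28.9 and 19.1 CPM at week 12 in WT glands. In WT tumors it was at 18.1, 16.2 and 30.3 CPM at week 6, 18.1, 15.01 and 12.9 CPM at week 8, 11.2, 15.7 and 16.7 CPM at week 10, and 14.5 CPM at week 12. The tumors lay under the glands at weeks 8, 10 and 12, and at week 6 the tumor at 30.3 CPM lay between both glands. Averaged over weeks 6, 8 and 10 Cdkn2b fell by 0.75 ± 0.16 on the log2 scale (SE), 1.68-fold (adjusted p = 8.1e-04), and it was called at week 8 (-0.85, adjusted p = 0.053) and week 10 (-0.88, adjusted p = 0.060). The calls at single ages were lost in 4 and 3 of 5 fits that left out 1 library, and the averaged call was kept in all 15. At week 8 the losses were without either gland (-0.95 without replicate 1, -0.73 without replicate 2) or tumor replicate 2 (-0.83) or 3 (-0.74), and at week 10 without either gland (-0.75 and -0.99) or tumor replicate 1 (-0.72). Both were also lost in the fit of libraries of at most 1% rRNA, and that at week 10 with the groups compared alone (highest adjusted p = 0.109 and 0.164). All WT libraries were within that limit, so the fit left out KO libraries only and the WT libraries compared were the same.

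In KO mice Cdkn2b was at 25.7 and 15.4 CPM at week 8, 14.7 and 12.2 CPM at week 10 and 13.4 and 11.4 CPM at week 12 in glands. In KO tumors it was at 14.02, 13.1 and 12.99 CPM at week 8, 13.2, 14.8 and 13.9 CPM at week 10, and 23.0, 14.7 and 11.8 CPM at week 12. At week 8 all 3 tumors lay below both glands, and at weeks 10 and 12 they overlapped. The log2 change was -0.62 ± 0.27 at week 8 (adjusted p = 0.368), 0.06 ± 0.28 at week 10 and 0.41 ± 0.28 at week 12, none of them called, and the average over these differing ages was -0.05 ± 0.16 (95% interval -0.38 to 0.28). The difference between the genotypes in the tumor effect at weeks 8 and 10 was -0.58 ± 0.27 on the log2 scale with an adjusted p of 0.888, so a difference between WT and KO mice was not shown.

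Cdkn2c was at 5.75 and 3.96 CPM at week 6, 10.32 and 5.48 CPM at week 8, 9.30 and 3.68 CPM at week 10 and 11.3 and 5.10 CPM at week 12 in WT glands. In WT tumors it was at 13.2, 16.03 and 12.8 CPM at week 6, 12.0, 10.6 and 11.02 CPM at week 8, 7.83, 8.22 and 13.6 CPM at week 10, and 6.83 CPM at week 12. The tumors were above the glands at weeks 6 and 8 and overlapped with them at week 10. Cdkn2c rose by 0.88 ± 0.21 on the log2 scale (SE), 1.84-fold (adjusted p = 0.0033), in the average and by 1.53 ± 0.37 at week 6 (adjusted p = 0.017), and without WT gland replicate 2 of week 6 the latter was 1.28 with an adjusted p of 0.329. In KO mice it ran from 4.95 to 14.1 CPM in glands and from 7.76 to 13.1 CPM in tumors, an averaged change of 0.20 ± 0.21 (adjusted p = 0.710) over tumors that lay above both glands at week 8 (0.82), below both at week 10 (-0.28) and among them at week 12, none of them called. Cdkn2a was near the limit of counting, with 7 to 272 reads per library, that is 0.119 to 2.77 CPM, and with ages pooled tumors and glands overlapped in both genotypes (averaged change -0.34 ± 0.49 and 0.21 ± 0.55). The KO average holds opposite changes, since the tumors lay below both glands at week 8 (-2.23 ± 0.91, adjusted p = 0.318) and above both at week 12 (2.12 ± 0.99, adjusted p = 0.289), neither of them called. Its reads are summed over p16Ink4a and p19Arf, which cannot be told apart here.

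The start regions of the 2 INK4 genes called in opposite directions in WT tumors are shown as the 250 bases before a RefSeq start (GRCm38.p6, minus strand, 5′ to 3′), with the GC box GGGCGG on either strand in capitals. The Cdkn2b window is chr4:89311033-89311282 and the Cdkn2c window, the upstream of 2 listed for that gene, is chr4:109666757-109667006.
Cdkn2b: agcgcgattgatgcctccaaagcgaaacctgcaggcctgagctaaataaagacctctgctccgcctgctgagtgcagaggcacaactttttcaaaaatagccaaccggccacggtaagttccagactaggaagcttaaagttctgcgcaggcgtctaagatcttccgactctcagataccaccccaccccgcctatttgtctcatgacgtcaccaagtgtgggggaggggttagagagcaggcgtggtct
Cdkn2c: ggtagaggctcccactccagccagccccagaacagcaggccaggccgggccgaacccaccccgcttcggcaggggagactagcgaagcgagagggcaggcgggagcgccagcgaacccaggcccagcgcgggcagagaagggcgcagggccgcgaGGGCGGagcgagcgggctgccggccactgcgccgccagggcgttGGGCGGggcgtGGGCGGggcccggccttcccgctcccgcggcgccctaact
The other Cdkn2c window, which is not shown, holds 0 GC boxes. The Cdkn2c window shown holds 3 GC boxes and the Cdkn2b window 0, against 32.7% of 32851 RefSeq windows of that length with at least 1. The E2F motifs TTTCCCGC, TTTGGCGC and TTTCGCGC, searched on both strands and able to share bases with a GC box, were in 1.53% of all windows and in neither of these. Of the members 8 had an entry, with 12 windows in all, and of those only the upstream Cdkn2a window held an E2F motif, TTTCCCGC. Ccnd1 and Ccnd2 had no entry.

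Of the 10 members, 4 were called in the averaged WT comparison, where 15.7% of all genes were called, and 2 in the averaged KO comparison, where 10.6% were. At single ages 2 members were called at weeks 6, 8 and 10 in WT mice, beside 5.86%, 9.19% and 6.13% of all genes, and 1, 2 and 1 at weeks 8, 10 and 12 in KO mice, beside 2.49%, 5.66% and 6.11%. With few members these counts describe the list and single out nothing about it. Over the 10 members the calls at single ages were 6 of Ccnd2, 2 of Cdkn2b, 1 of Cdkn2c and 1 of Ccnd1.

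WT and KO tumors of the same age differed in Ccnd2, which was lower in WT tumors. At week 8 the 3 WT tumors (1.57 to 2.28 CPM) were below the 3 KO tumors (9.71 to 13.7 CPM), and at week 10 the KO tumors ran from 1.55 to 6.20 CPM and overlapped with the WT tumors (2.26 to 3.09 CPM). The averaged log2 difference was -1.59 ± 0.34 (SE), 3.01-fold (adjusted p = 0.039), and Ccnd2 was the 1 member called, beside 0.512% of all genes. Of the KO tumors, 4 of these 6 had an rRNA share over 1%. With libraries of at most 1% alone, which leaves 1 KO tumor at each age (9.71 and 6.20 CPM), assumed to vary like the other groups, the difference was -1.73 and the adjusted p 0.226. The call was also lost without WT tumor replicate 3 of week 8 (-1.53, adjusted p = 0.118), KO tumor replicate 2 (-1.57, 0.104) or 3 (-1.53, 0.106) of week 8, or KO tumor replicate 2 of week 10 (-1.55, 0.105). Basal markers did not differ past the thresholds in these tumors (0 of 10 called, median -0.47 against 0.05 over all genes). Ccnd2 lies 20.1 Mb from Pthlh on chromosome 6.

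Of the other members, 2 had a raw p under 0.05 in WT against KO tumors and were not called. That raw p was met by 3996 of the 36527 genes. Cdkn1a was lower in WT tumors by a log2 difference of -0.72 ± 0.30 (adjusted p = 0.371), and Cdkn2a stood 1.60 ± 0.57 above KO tumors (adjusted p = 0.274). For Cdkn2a the values at week 8 were 2.37, 0.201 and 1.11 CPM in WT and 0.119, 0.273 and 0.217 CPM in KO tumors, and at week 10 0.903, 1.68 and 0.448 CPM in WT and 0.165, 1.59 and 0.316 CPM in KO tumors. The genotypes overlap at both ages, with reads per library as low as 8 in these KO tumors. DESeq2 called Cdkn2a here, and so did the fit without a filter on low counts, which also called Cdkn1a.

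At matched stages no member was called between WT and KO tumors. In hyperplasia 1.53% of all genes were called, and 5186 of the 36527 genes had a raw p under 0.05. Of the 10 members 4 had a raw p under 0.05. These were Ccnd1 (1.01 ± 0.43, adjusted p = 0.264), Cdk4 (0.31 ± 0.11, adjusted p = 0.158), Cdkn2b (0.68 ± 0.25, adjusted p = 0.181) and Cdkn2c (0.68 ± 0.32, adjusted p = 0.327), each above 0 for WT over KO. DESeq2 called Cdkn2b there. A list of 20 proliferation genes had a median log2 difference of 1.025 in hyperplasia, against -0.085 over all genes, with 0 called. Its part in the differences of these members was not tested. In adenoma 0.00821% of genes were called and in carcinoma 0.0192%. Under a raw p of 0.05 were 1 member (Ccnd2) and 0 members, beside 1638 and 2384 of all genes, and DESeq2 called 0 members. The Ccnd2 difference was -0.40 ± 0.45, -1.09 ± 0.48 and -0.89 ± 0.47 in hyperplasia, adenoma and carcinoma (adjusted p = 0.740, 0.866 and 0.745). Stage-matched tumors differ in age, and those of the same age in stage, so genotype, age and stage cannot all be told apart in these tumors.

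The tumor effect itself was compared between genotypes. Over weeks 8 and 10 the effect on Ccnd2 in WT minus that in KO mice was -1.37 ± 0.51 on the log2 scale (adjusted p = 0.830), and in hyperplasia its 95% interval was -2.47 to 0.46 (adjusted p = 0.793). No member was called in either test, beside 0.00548% and 0% of all genes. Under a raw p of 0.05 were 2 and 1 members, beside 2038 and 2181 of the 36527 genes. Over all genes the hyperplasia test called 0, with 2181 genes under a raw p of 0.05 and 27 called by DESeq2, and DESeq2 called no member in either.

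In tumor-free glands the genotypes differed in Cdkn2b, the 1 member called, beside 0.906% of all genes. WT glands of weeks 8, 10 and 12 ran from 19.1 to 29.7 CPM and KO glands from 11.4 to 25.7 CPM, a log2 difference of 0.79 ± 0.17 (SE), 1.73-fold (adjusted p = 0.036), against a median of 0.14 over all genes. The KO gland at 25.7 CPM, replicate 1 of week 8, lay among the WT glands, and the other 5 were below all WT glands. Of the 6 KO glands 4 had an rRNA share over 1%. The 2 with less stood at 25.7 CPM and 13.4 CPM. With the rRNA share as a covariate the difference was 0.82 and its adjusted p 0.164, and with the groups compared alone in the fit 0.78 and 0.133. The call was lost without WT gland replicate 2 of week 8 (0.75), WT gland replicate 1 of week 12 (0.68), or KO gland replicate 2 of week 8 (0.69), of week 10 (0.74) or of week 12 (0.76). Cdkn1a (-0.66 ± 0.30, adjusted p = 0.369) and Cdkn1b (0.23 ± 0.10, adjusted p = 0.332) also had a raw p under 0.05 in glands and were not called. That raw p was met by 4514 of the 36527 genes. Of the cell-type lists, the macrophage and endothelial lists each had 1 gene called higher in WT glands (medians 0.906 and 0.513), and the others had 0. The part of cell type in the Cdkn2b difference was not tested.

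With age no member was called within tumors or glands. Between weeks 10 and 6 of WT tumors 0.011% of all genes were called, between weeks 12 and 8 of KO tumors 0%, and between weeks 12 and 6 of WT glands 0.35%. Under a raw p of 0.05 were 2, 2 and 1 members, beside 3122, 2878 and 2994 of the 36527 genes. For KO tumors 0 genes were called, 2878 had a raw p under 0.05 and DESeq2 called 125. The changes of Ccnd2 were -1.68 ± 0.48 (adjusted p = 0.433), -1.20 ± 0.46 (adjusted p = 0.626) and -1.20 ± 0.55 (adjusted p = 0.571). Cdkn2a stood at 0.119, 0.273 and 0.217 CPM in KO tumors of week 8 and at 1.08, 2.77 and 0.652 CPM at week 12, which do not overlap, a change of 2.90 ± 0.85 (adjusted p = 0.512). DESeq2 called Ccnd2 in WT tumors and Cdkn2a in KO tumors, and no member in WT glands.

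Mice of the same genotype, tissue and age also differed among themselves, and 3 members followed the proliferation genes in these differences. The score was the mean log2 level of 20 genes such as Mki67 and Top2a, and each library was taken as its deviation from the mean of its group, over 32 libraries of the 13 groups with 2 or 3 mice, so that the points of a group of 2 mirror each other. Pearson's r with the score was 0.905 for Cdkn2c (permutation p = 6.0e-04, adjusted over 10 members 0.003), 0.775 for Ccnd1 (permutation p = 6.0e-05, adjusted 6.0e-04) and 0.723 for Cdk6 (permutation p = 0.0012, adjusted 0.0041). Spearman's rho was 0.878, 0.855 and 0.700 (permutation p = 5.0e-04, 6.0e-05 and 0.0033). Without the 2 libraries farthest from the median score r was 0.871, 0.862 and 0.727.

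The other 7 members did not pass the correction. Ccnd3 had an r of 0.556 (permutation p = 0.042, adjusted 0.106), which fell to 0.308 without the 2 farthest libraries. Cdkn2b had 0.328, Cdk4 0.322 and Cdkn1a 0.253. Cdkn2a (0.059), Ccnd2 (0.010) and Cdkn1b (-0.013) were near 0. In WT libraries alone the same number of members, 3, passed, and in KO libraries alone none did, with r of 0.911 for Ccnd1, 0.778 for Cdk6 and 0.817 for Cdkn2c (permutation, adjusted p = 0.128, 0.198 and 0.198). Of the 20 proliferation genes, 10 were called higher in the WT average (median log2 change 0.78) and 10 at week 6 (1.70), but 0 at weeks 8 and 10 (medians 0.49 and 0.15), and their summed level overlapped, at 604 to 2099 CPM in WT glands and 747 to 2713 CPM in WT tumors. In the KO average 0 were higher and 1 lower (median -0.19), over medians of 0.67 at week 8, -0.63 at week 10 and -0.57 at week 12. The tumor effect on these genes was not shown to differ between genotypes. At matched ages and in hyperplasia 0 of 20 were called, beside 0.00548% and 0% of all genes, so these counts cannot decide it. Their median log2 difference, WT minus KO, was 0.265 and 0.912, against -0.025 and -0.067 over all genes. The part of the proliferation genes in the rise of Cdkn2c in WT tumors was not tested.

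**Figure D4:**
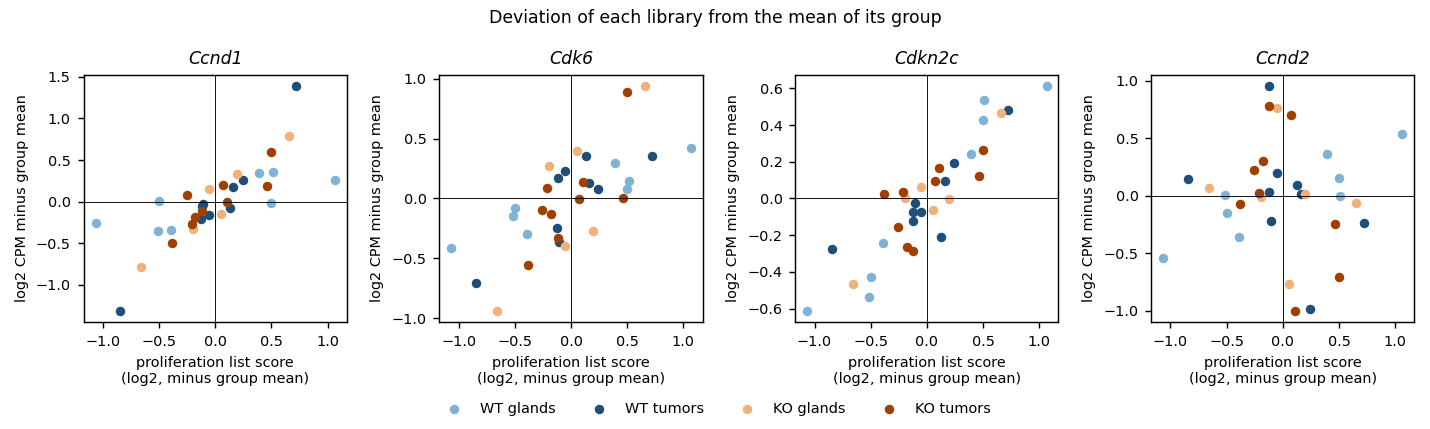
Deviation of log2 CPM from the group mean (y axis) against the deviation of the proliferation list score (x axis, log2) for 4 members over 32 libraries, coloured by genotype and tissue. The points rise together for Ccnd1 (r = 0.775), Cdk6 (r = 0.723) and Cdkn2c (r = 0.905) and show no trend for Ccnd2 (r = 0.010).

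The genes whose deviations were most like those of a member, among 13324 genes with a mean of at least 1 CPM over the same 32 libraries, are given as a description. They were Dnaaf5 (r = 0.946) and Mthfd1l (0.933) for Ccnd1, Ctnnd2 (0.770) and Paqr3 (0.758) for Ccnd2, and Stt3b (0.880) and Ap2m1 (0.845) for Ccnd3. For the kinases they were Nop10 (0.842) and Get1 (0.831) for Cdk4, and Ezh2 (0.955) and Nsd2 (0.947) for Cdk6. For the Cip/Kip genes they were Zmat3 (0.901) and S100a11 (0.893) for Cdkn1a, and Idh2 (0.905) and Klhl7 (0.887) for Cdkn1b. For the INK4 genes they were Dnajc22 (0.681) and Gm29695 (0.679) for Cdkn2a, Slc52a3 (0.768) and 9930111J21Rik2 (0.750) for Cdkn2b, and Cdca5 (0.943) and Sapcd2 (0.940) for Cdkn2c. The libraries differ in depth and rRNA share, which all genes of a library have in common, and each gene was chosen as one of the highest of all those searched, so no test goes with it.

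Of 24 other regulators of the G1/S step, 7 were called higher and 0 lower in WT tumors, where 15.7% of all genes were called (median log2 change 0.28 against 0.04 over all genes). In KO tumors 2 were higher and 1 lower, where 10.6% of all genes were called (median -0.07 against 0.09). Rb1, which encodes the retinoblastoma protein, rose 3.08-fold in WT tumors (log2 change 1.62 ± 0.25, adjusted p = 2.4e-05) and 2.93-fold in KO tumors (1.55 ± 0.25, adjusted p = 6.4e-05). Its level was 26.6 to 39.7 CPM in WT glands and 38.3 to 211 CPM in WT tumors. Cdkn1c (p57), the Cip/Kip gene outside the members, rose 3.91-fold in WT tumors (1.97 ± 0.23, adjusted p = 4.9e-07) and 2.91-fold in KO tumors (1.54 ± 0.23, adjusted p = 2.3e-05), from 0.893 to 3.86 CPM in WT glands and 2.67 to 6.42 CPM in WT tumors.

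Of the 20 proliferation genes, those with the lowest adjusted p in WT tumors were Ccnb2, a mitotic cyclin (1.30 ± 0.34, adjusted p = 0.0080), and Aurkb, a mitotic kinase (1.10 ± 0.32, adjusted p = 0.016), and in KO tumors they stood at 0.50 and 0.03 with no call. Of 16 p53 targets 1 was higher and 2 were lower in WT tumors and 0 and 2 in KO tumors, beside 15.7% and 10.6% of all genes called. Phlda3, an inhibitor of Akt, fell by 0.90 ± 0.13 in WT and 0.87 ± 0.13 in KO tumors (adjusted p = 6.5e-06 and 1.8e-05), and Bbc3, the pro-apoptotic Puma, changed by 0.40 and 0.55, under the fold required. Of 12 known regulators of the members 0 were higher and 1 was lower in WT tumors, and 1 was higher and 0 lower in KO tumors. The one lower was Tgfb1 (-0.73 ± 0.15, adjusted p = 7.0e-04), whose product induces Cdkn2b in epithelium, and it was not called in KO tumors (-0.23 ± 0.15, adjusted p = 0.432). Bmi1, a Polycomb repressor of Cdkn2a, changed by 0.39 and 0.37, under the fold required. No gene of these 4 lists was called between WT and KO tumors or glands.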

How the data were processed

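HISAT (GRCm38, Gencode M16), Picard 1.128 for removing duplicates and HTSeq for gene counts were the tools the authors ran on stranded, rRNA-depleted paired-end reads. Whether HTSeq used strand is not given in the sources used here. Ccnd1, Ccnd3 and Cdk4 share 1100, 361 and 641 exon bases with LTO1, Bysl and Tspan31 on the opposite strand, and Ccnd2, Cdk6 and Cdkn1a overlap with antisense or unclassified genes of at most 174 reads in all. The deposited counts of 55487 genes were used, and 111 rows that name no gene (0.0778% of reads) were left out. The deposited normalized table holds signal, counts divided by a size factor per library. All of its values became whole reads (tolerance 0.001), between 76.7% and 88.7% of them equal to the counts, and it served as an alternative.

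Counts were tested with edgeR 4.0.16 (TMM, glmQLFit, glmQLFTest, limma 3.58.1, R 4.3.3) with 1 coefficient per genotype, tissue and age over 33 libraries, on 36527 genes with at least 10 reads in all. The study used DESeq2, run here as an alternative (1.42.0). SE is the log2 change divided by the square root of F. There were 18 comparisons. Averaged, single-age, genotype and age comparisons share libraries. Log2 CPM for correlations had a pseudocount of 0.5, and p came from 100000 permutations within groups. Exon lengths are from Gencode M21. Fits leaving out 1 library kept the dispersion trend of all libraries. Scripts were tested on simulated counts. Named were all members, the 2 genes most correlated with each, and from each pathway list the 2 genes of lowest adjusted p in WT tumors averaged and any called between WT and KO. Members and lists were chosen with earlier results of these data known. Each mouse is a separate animal by its label. Among 25 pairs of libraries of a group none were duplicates (lowest chi-square per degree of freedom 37.4).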

Additional observations from a re-analysis of the deposited data

Results flagged for a closer look

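For Cdkn2a, Cdkn2c and Ccnd3 all tumors lay above the glands at one age and below them at another, and these differences between ages or genotypes were not tested. Cdkn2a was lower in KO tumors than in KO glands of week 8 (log2 change -2.23) and higher at week 12 (2.12), at 8 to 131 reads per library. Cdkn2c was higher in WT tumors of week 6 (1.53) and week 8 (0.51) and in KO tumors of week 8 (0.82), and lower in KO tumors of week 10 (-0.28). Ccnd3 was higher in WT tumors of week 6 (0.32) and lower in KO tumors of week 12 (-0.39). Of these changes only that of Cdkn2c at week 6 was called. Cdk4 also lay above the glands in WT tumors of week 6 (0.24) and below them in KO tumors of week 8 (-0.17). That difference was tested, as the hyperplasia stage, and did not pass (0.41 ± 0.17, adjusted p = 0.785, edgeR). The share of all genes with such opposite separations was not determined. With so few mice per group a complete separation can arise by chance, so these separations single out nothing about the members.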

How the results depend on the processing

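The number of members called per comparison changed by over 1.5 times as follows, and the cause was not tested. DESeq2 called 2 in WT against KO tumors (1 in edgeR) and 1 each in hyperplasia, in WT tumors of week 10 against 6 and in KO tumors of week 12 against 8 (0 in edgeR). Without a filter on low counts there were 2 at KO week 8, 3 in WT against KO tumors, 2 in hyperplasia and 1 in each comparison of tumor ages. Upper-quartile factors left 1 at KO week 10. The rRNA covariate left 1 at KO week 10 and 0 in glands. Libraries with at most 1% rRNA, chosen after seeing the data, left 1 at WT weeks 8 and 10 and 0 at KO week 8 and in WT against KO tumors. At KO week 8 this compares 1 tumor with 1 gland, assumed to vary like the other groups, so the lost call says nothing about stability (Ccnd2 log2 change -2.21, adjusted p = 0.54). Averaged KO mice and WT against KO glands could not be fitted under this limit. All WT libraries were within it, so at WT weeks 8 and 10 the libraries compared were the same. The groups compared alone gave 1 at WT week 10, 3 at KO week 8, 0 at KO week 12, 0 in glands and 2 in hyperplasia. A fold change over 2 left 1 at WT weeks 8 and 10 and in both averages, and 0 in glands. Leaving out each library in turn gave 1 to 3 at WT weeks 6 and 10, 1 to 2 at WT week 8, 0 to 0 at KO week 8, 1 to 1 at KO week 10, 1 to 2 at KO week 12 and in the KO average, 0 to 1 in WT against KO tumors and glands, and 0 to 1 in WT tumors of week 10 against 6. The Ccnd3 share difference in WT mice ran from 2.97 to 6.99 points. In KO libraries alone 0 members passed the test against the proliferation list, in fewer libraries and with r of 0.911 (Ccnd1), 0.778 (Cdk6) and 0.817 (Cdkn2c). Replicate numbers did not pair the libraries (64 of 171 same-numbered pairs correlated above 0.1, median r = 0.023), and with the number as a replicate block 4 members were called in the WT average, 2 in the KO average and 1 in WT against KO tumors, with no call changed in any comparison. No called change reversed under any alternative. With 2 or 3 mice per group, Cdkn2a at 7 to 272 reads per library is the member least able to show a difference.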

Other observations

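Per exon length the 5 inhibitors also differed in their shares of their own sum, given here as values with no test. Cdkn1b had the highest median share in WT tumors (44.7%), KO tumors (41.9%) and KO glands (31.8%), and Cdkn2b in WT glands (41.0%). These medians pool ages. In KO glands the mean CPM per kilobase of Cdkn1a and Cdkn1b was 19.8 and 13.2 at week 8, 8.80 and 14.2 at week 10, and 12.7 and 12.5 at week 12. Cdkn2b had a median share of 27.5% in WT tumors, 25.7% in KO glands and 24.7% in KO tumors. The median share of Cdkn1a was 17.5% in WT glands, 15.9% in WT tumors, 28.0% in KO glands and 22.5% in KO tumors. Cdkn2a was at most 4.97% in each library.

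Within groups, Cdkn1a and Cdkn1b ran against each other (r = -0.701 over 32 libraries), and the closest pair of members was Ccnd1 with Cdk6 (r = 0.679). These are descriptions over libraries that differ in depth and rRNA share, which all genes of a library have in common.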
